A study of Homo sapiens with 24 samples.

Results

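The response to depletion of YY1 was compared between ACHN, an established line from a human kidney tumour whose label gives the cell type ccRCC, and HK2 cells, a line of human kidney tubular epithelium. The 12 libraries used here are 12 of the 24 in the series. They are the 3 shNC libraries, with a control hairpin, and the 3 shYY1 libraries, with a hairpin against YY1, of each of the 2 cell lines. They were chosen by their labels. The other 12 libraries, in which KDM5C was depleted alone or together with YY1, were not used. Both lines were grown in DMEM with 10% fetal bovine serum. Per the study's methods the hairpins were delivered by lentivirus and stable cells were selected with puromycin, which the 4 groups share. Which of the YY1 hairpins of the study was sequenced is not given in the sources used here, so an effect of 1 hairpin on other transcripts cannot be told apart from the effect of YY1. The labels number the replicates without naming separate cultures, so the p-values measure the spread between these libraries, which may be technical.

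YY1 is a ubiquitous zinc finger protein that binds a short DNA motif, often close to transcription start sites, and either activates or represses the gene there depending on its partners. Its partners include the INO80 remodelling complex and, in the related factor Pho of flies, the Polycomb repressors. Promoters of ribosomal and mitochondrial protein genes are well known YY1 sites, and YY1 is also known to restrain p53 and to pair enhancers with promoters. The question here was which genes answer to YY1 loss alike in a cancer line and in a tubular line, and which do not.

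Counts per library ranged from 16395808 to 19273176, mitochondrial genes took between 4.77% and 7.40% of them, and no pair of replicates of a group agreed within sampling noise. Values are given as CPM, the usual counts scaled to a common library size, with edgeR's TMM factors over the 12 libraries, and a change is a log2 fold change of shYY1 against shNC. Of 8 renal epithelial markers, 7 in ACHN and 8 in HK2 cells had at least 1 CPM in shNC libraries. Proximal tubule identity was thin in both lines, since only GGT1 and SLC5A2 of 10 markers reached 1 CPM and LRP2, SLC22A6 and HNF4A, which define that segment, were at or near 0. Of 5 clear cell carcinoma markers, 4 in ACHN and 3 in HK2 cells had at least 1 CPM in shNC libraries. In ACHN shNC libraries VEGFA averaged 120.5 CPM, while CA9 was near 0 (mean 0.127 CPM). Summed over 5 blood markers, the libraries held between 0.162 and 7.58 CPM, nearly all of it CD14 in HK2 cells. The 4 endothelial markers summed to between 0.182 and 1.80 CPM. The summed level of 6 fibroblast markers fell in ACHN cells from between 595 and 649 CPM to between 192 and 200.2 CPM, most of it COL1A1, and stood at 42.8 to 44.3 CPM in shNC and 56.3 to 63.2 CPM in shYY1 libraries of HK2 cells.

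The depletion itself was unequal. YY1 (ENSG00000100811, chr14:100238298-100282792 of GRCh38) was measured at 137, 141 and 145 CPM in the ACHN shNC libraries and at 81.0, 74.1 and 78.0 CPM in ACHN shYY1. In HK2 cells it was measured at 214, 216 and 204 CPM in shNC and at 62.2, 69.1 and 63.4 CPM in shYY1. The groups did not overlap in either line. HK2 cells thus began with more YY1 mRNA and ended with less. YY1 fell by 0.86 ± 0.05 (SE, n = 3 against 3) on the log2 scale in ACHN cells and by 1.70 ± 0.05 in HK2 cells, and the difference of 0.84 ± 0.07 (95% interval 0.71 to 0.98) had an adjusted p of 7.04e-11 by edgeR's quasi-likelihood test. Each difference between the lines described here therefore compares a smaller with a larger loss of YY1 mRNA, and the degree of depletion and the cell line cannot be told apart.

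KDM5C, the H3K4 demethylase that the study pairs with YY1, rose in both lines by nearly the same amount. Its levels were 72.1, 72.4 and 71.2 CPM against 90.4, 90.3 and 94.6 CPM in ACHN cells, and 193, 192 and 198 CPM against 261, 247 and 233 CPM in HK2 cells. That is a change of 0.35 ± 0.05 in ACHN and 0.35 ± 0.04 in HK2 cells, and the interval of the difference ran from -0.12 to 0.13 (adjusted p = 0.966). KDM5B, another H3K4 demethylase, changed by -0.38 ± 0.04 in ACHN and by -0.02 ± 0.04 in HK2 cells, and here the difference passed (adjusted p = 2.47e-05). YY2, a retrogene copy of YY1, was low in all 12 libraries, at 1.32 to 7.40 CPM, and passed neither test. YY1AP1, which encodes a YY1-associated protein, changed by 0.06 ± 0.07 in ACHN and by -0.22 ± 0.07 in HK2 cells (difference 0.29 ± 0.10, adjusted p = 0.0248).

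**Figure D1:**
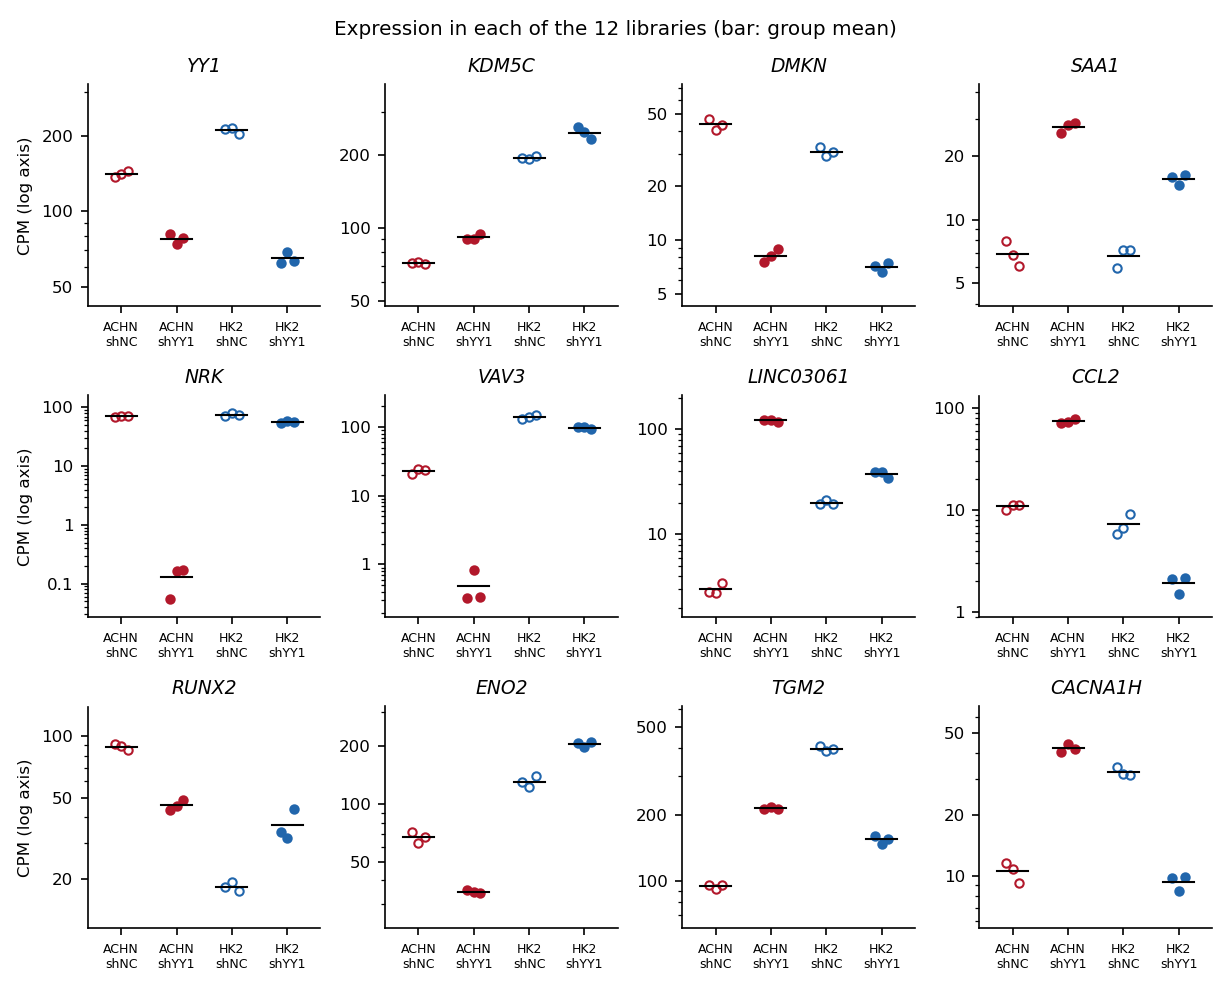
CPM on a log axis in each of the 12 libraries for 12 genes, with ACHN in red and HK2 in blue, shNC as open and shYY1 as filled points, and a bar at each group mean of 3. YY1 falls in both lines and further in HK2, KDM5C and SAA1 rise and DMKN falls in both, NRK and VAV3 drop in ACHN with smaller changes in HK2, and CCL2, RUNX2, ENO2, TGM2 and CACNA1H move in opposite directions.

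Of 14665 genes measured in both lines, many changed in each line at small size and few at large size. A gene was called lower or higher at an adjusted p under 0.05 and a log2 fold change of at least 1.5 in size. In ACHN cells 241 genes were called lower (1.64% of genes tested) and 81 higher (0.552%), and in HK2 cells 104 lower (0.709%) and 28 higher (0.191%). At any size of change, 2901 genes fell (19.8%) and 3289 rose (22.4%) in ACHN cells, and 2806 fell (19.1%) and 2786 rose (19.0%) in HK2 cells. This near-equal extent depended on fitting both lines together. When the 6 libraries of each line were fitted alone, 3683 genes fell and 3693 rose in ACHN, and 2219 fell and 2210 rose in HK2 cells. Replicates lay further apart in HK2 (chi-square per degree of freedom 3.314 to 5.818) than in ACHN cells (1.925 to 2.742). With the trend of each library with gene length and GC content taken out, the falls and rises numbered 2632 and 3979 in ACHN and 2383 and 3629 in HK2 cells. The 28 genes called higher in HK2 cells numbered 45, 58 or 47 without HK2 shNC replicate 1, HK2 shNC replicate 3 or HK2 shYY1 replicate 2. The changes spread more widely in ACHN (SD of the log2 fold change over genes 0.54) than in HK2 cells (0.41), while the fall of YY1 mRNA was smaller in ACHN cells.

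Across genes, the changes in one line said little about those in the other. Pearson's r of the 2 log2 fold changes over the 14665 genes was 0.073 and Spearman's correlation 0.070. These describe genes, which are not independent replicates, and the lines share no library. Of the genes that changed in ACHN cells at any size, 47.1% also changed in HK2 cells, and of those that changed in HK2 cells, 52.1% also changed in ACHN cells. Over all genes tested, 19.1% fell and 19.0% rose in HK2 cells, and 19.8% fell and 22.4% rose in ACHN cells, so much of this overlap would be met by any gene. In the same direction, 817 genes fell in both lines (5.57% of genes tested) and 843 rose in both (5.75%). In opposite directions, 511 fell in ACHN and rose in HK2 cells (3.48%) and 744 rose in ACHN and fell in HK2 cells (5.07%). The difference itself passed the test for 310 of the shared falls and 227 of the shared rises. It also passed for all 1255 opposed genes, which opposite changes past the test in each line make all but certain. The shared split depended on the scaling, with 1023 falls and 584 rises when libraries were scaled by total counts, and 658 falls and 1335 rises with the length and GC trend taken out.

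**Figure D2:**
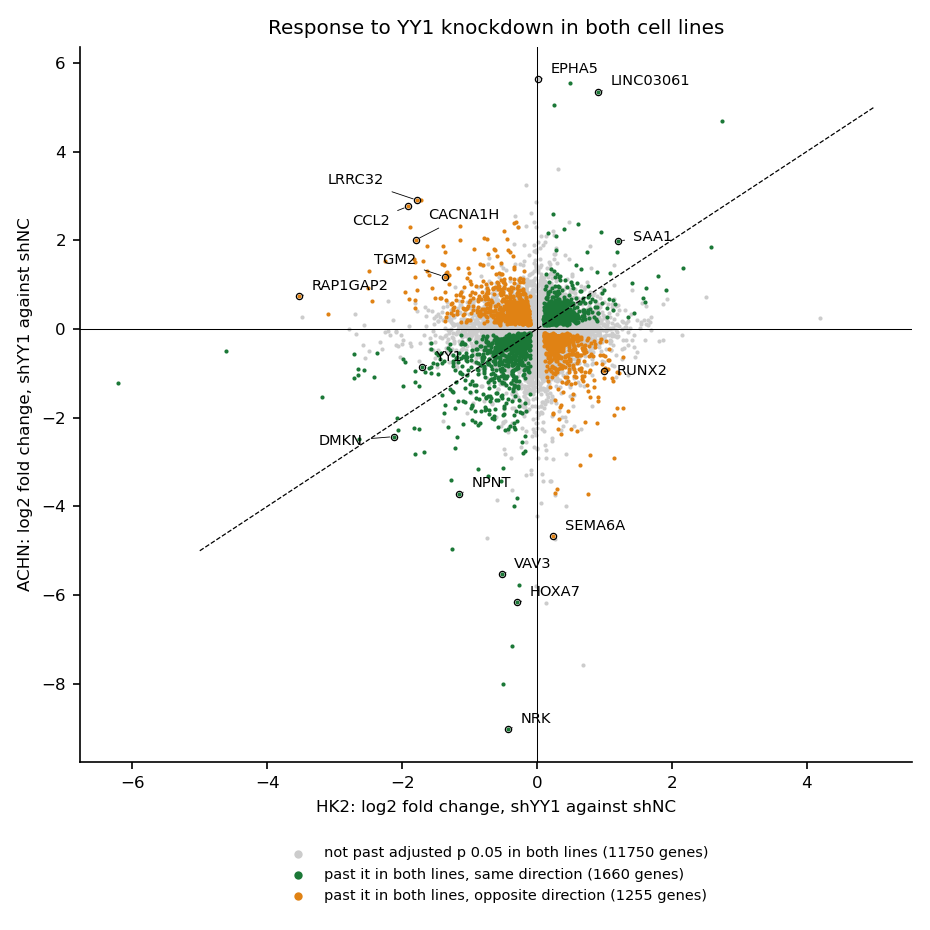
Each point is 1 of the 14665 genes, with its log2 fold change in HK2 cells on the x axis and in ACHN cells on the y axis, and the dashed line marks equal changes. Genes past the test in both lines in the same direction (green, 1660) are more numerous than those in opposite directions (orange, 1255), and NRK at the bottom and EPHA5 at the top lie close to 0 on the HK2 axis, at -0.43 and 0.01.

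The difference between the lines, tested directly as the ACHN change minus the HK2 change, was called for 254 genes as lower in ACHN (1.73%) and 257 as higher in ACHN (1.75%). At any size it passed for 2865 (19.5%) and 2965 genes (20.2%). Of the genes called in ACHN cells and not called in HK2 cells, 159 lower (1.08%) and 58 higher (0.395%) also had a called difference. The converse held for 57 lower (0.389%) and 9 higher genes (0.0614%) of HK2 cells. Those 57 numbered 86 or 89 without HK2 shYY1 replicate 1 or 2. The 9 numbered 5 without ACHN shNC replicate 1, and 19, 16, 32 or 28 without HK2 shNC replicate 1, 2 or 3 or HK2 shYY1 replicate 2. Another 216 genes with a called difference were called in neither line alone.

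Few genes changed strongly in both lines. At a log2 fold change of 1.5 or more in size in both, 9 genes fell (0.0614%) and 2 rose (0.0136%), and the 2 became 4 without HK2 shNC replicate 3. Most of the falls rest on few counts in ACHN cells. FNDC5, LAD1, FXYD6, SLC7A8, ENSG00000276851 and JAM2 averaged at most 1.83 CPM in ACHN shNC libraries. Another 10 genes past that size in both lines rose in ACHN and fell in HK2 cells, among them CCL2, BGN, LRRC32, PAX2, ENG and CACNA1H. DMKN (chr19:35497220-35513658), a secreted protein known from the epidermis, had the largest smaller change of both lines among the named shared falls. It stood at 47.2, 41.0 and 43.7 CPM in ACHN shNC and 7.51, 8.09 and 8.92 CPM in ACHN shYY1, and at 32.7, 29.1 and 30.6 CPM in HK2 shNC and 7.18, 6.61 and 7.40 CPM in HK2 shYY1. No shNC library overlapped a shYY1 library. The changes of -2.43 ± 0.09 and -2.12 ± 0.10 did not differ at the threshold (adjusted p = 0.0805, 95% interval of the difference -0.59 to -0.02). SCN8A, which encodes a voltage-gated sodium channel, likewise fell by 1.33 ± 0.12 and 1.07 ± 0.13 (interval of the difference -0.64 to 0.11).

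Other shared falls were deeper in ACHN cells. NPNT, nephronectin, a matrix ligand of integrins in kidney development, went from 174, 187 and 183 CPM to 13.0, 14.8 and 13.7 CPM in ACHN cells and from 239, 254 and 239 CPM to 109, 109 and 110 CPM in HK2 cells. It thus fell by 3.71 ± 0.06 and by 1.16 ± 0.04 on the log2 scale, with an adjusted p of 4.67e-20 for the difference. MACROH2A2, a histone H2A variant of repressed chromatin, fell by 3.41 ± 0.10 and by 1.28 ± 0.08 (adjusted p = 3.20e-13), and the alpha-tubulin gene TUBA1A by 2.43 ± 0.07 and by 1.19 ± 0.07 (adjusted p = 2.15e-10). CRYBG2, a crystallin-domain gene, and MARCHF9, a membrane ubiquitin ligase, also fell further in ACHN cells (adjusted p of the difference 0.00216 and 0.0489). PPL, periplakin of desmosomes, fell further in HK2 cells, with -1.02 ± 0.07 in ACHN and -1.47 ± 0.09 in HK2 cells (adjusted p = 0.00395).

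The named shared rises included SAA1 and LINC03061. SAA1 (chr11:18266174-18269977), the acute-phase protein serum amyloid A, went from 7.91, 6.81 and 6.04 CPM to 25.7, 28.002 and 28.7 CPM in ACHN cells and from 5.91, 7.19 and 7.17 CPM to 15.98, 14.5 and 16.3 CPM in HK2 cells. Its changes were 1.98 ± 0.11 and 1.21 ± 0.12, and its close copy SAA2 may share reads with it. The difference did not pass the test for SHC3, a neuronal signalling adaptor (1.26 ± 0.11 and 1.08 ± 0.11, interval -0.13 to 0.49), or CCDC167 (0.60 ± 0.11 and 0.63 ± 0.11, interval -0.36 to 0.29). KCNAB2, a potassium channel beta subunit, rose by 0.85 ± 0.05 and 0.65 ± 0.07 (adjusted p of the difference 0.0558). CLDN11, a tight junction claudin, rose from 82.1 to 85.2 CPM in shNC to 273 to 288 CPM in ACHN shYY1 and from 112 to 118 CPM to 177 to 216 CPM in HK2 shYY1. Its change was larger in ACHN cells (1.74 against 0.73), as was that of ANKRD1, an ankyrin protein of stretched muscle and a YAP target (2.36 against 0.61, adjusted p = 4.09e-14).

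The core of the YY1 motif, AAGATGGC, was searched on both strands in RefSeq promoters (GRCh38.p14, 250 bases before to 50 after the start), which 10640 of the tested genes had by symbol. It lay in 576 of them, 5.41%, and in 63.2% of these its first base was downstream of the start. Among genes that rose in both lines 60 of 638 promoters held it (9.40%), among genes that fell in both 37 of 636 (5.82%), among genes lower in ACHN and higher in HK2 cells 11 of 399 (2.76%), and among genes higher in ACHN and lower in HK2 cells 20 of 578 (3.46%). The shares by line were 6.16% of rises and 4.66% of falls in ACHN cells and 7.24% and 5.76% in HK2 cells. A match is a description of letters, not a bound site. The following windows, on the strand of each gene, show the motif, in capitals, in genes that rose in both lines and in genes that fell in both. They are the 5 shared rises and the 5 shared falls with the motif whose smaller change of the 2 lines was largest, at 10 CPM or more in each line. The 5 genes that rose are
CCDC167: cgcccctcaacAAGATGGCgacggcagcag (chr6:37499979-37500008, minus strand)
GPATCH3: tgtgacaatccAAGATGGCggtgcccggcg (chr1:26900427-26900456, minus strand)
PFDN4: agtccagtcccAAGATGGCggccaccatga (chr20:54208087-54208116, plus strand)
ISCU: cgcaagccggcAAGATGGCggcggctgggg (chr12:108562609-108562638, plus strand)
MIRLET7IHG: gtcccggatgtAAGATGGCggcgcgggggg (chr12:62602743-62602772, plus strand)
and the 5 that fell are
SCN8A: gggagcgctccAAGATGGCgcccaccgcag (chr12:51591234-51591263, plus strand)
CELSR3: cgtcctcaataAAGATGGCggcaacatctt (chr3:48662982-48663011, minus strand)
LMAN2L: cgttggtgggaAAGATGGCggcgactctgg (chr2:96740025-96740054, minus strand)
EXOG: gtacctcgggcAAGATGGCtatcaagagta (chr3:38496354-38496383, plus strand)
SGSM2: gcggggctcggAAGATGGCtgcggagccga (chr17:2337503-2337532, plus strand)

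In CCDC167 and CELSR3 the motif began 104 and 114 bases before the start, and in the other 8 genes between 12 and 26 bases into the transcript. ISCU, a scaffold for iron-sulfur clusters, rose by 0.64 in ACHN and 0.42 in HK2 cells, PFDN4, a prefoldin subunit, by 0.42 and 0.70, GPATCH3 by 0.46 and 0.45, and MIRLET7IHG, the host transcript of let-7i, by 0.42 and 0.42. CELSR3, a cadherin of planar polarity, fell by 1.51 and 0.72, SGSM2, a Rab regulator, by 1.26 and 0.34, LMAN2L, a cargo lectin, by 0.53 and 0.37, and EXOG, a mitochondrial nuclease, by 0.38 and 0.35.

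Several genes kept only a few counts in ACHN shYY1 libraries and most of their level in HK2 cells. NRK (chrX:105822543-105958610), the Nik-related kinase, was expressed alike in shNC cells of both lines, at 68.3, 72.2 and 71.3 CPM in ACHN and 71.8, 79.1 and 75.6 CPM in HK2 cells. In ACHN shYY1 it was left with 1, 3 and 3 counts, or 0.182% of the shNC level (exact 95% counting interval 0.0731% to 0.375%), while HK2 shYY1 libraries held 53.9, 57.8 and 56.2 CPM. The 7 remaining counts compare with 3897 in ACHN shNC. Its fitted changes, which for so few counts depend on the prior count, were -9.03 in ACHN and -0.43 in HK2 cells (difference -8.59, adjusted p = 1.89e-22).

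HOXA7 (chr7:27153716-27157936), a homeobox gene, went from 27.7, 27.0 and 29.7 CPM to 0.378, 0.438 and 0.339 CPM in ACHN cells and from 19.8, 18.5 and 15.3 CPM to 15.0, 14.9 and 13.9 CPM in HK2 cells. The ACHN libraries are separated by more than an order of magnitude and the HK2 libraries by less than 1 CPM. FOLR1, the folate receptor, fell from between 24.4 and 28.2 CPM to between 0.164 and 0.810 CPM in ACHN cells, and its HK2 groups overlapped (43.9 to 55.6 against 35.6 to 44.8 CPM). VAV3, a guanine nucleotide exchange factor, fell from 20.6 to 24.6 CPM to 0.324 to 0.820 CPM in ACHN cells, and from 131 to 152 CPM to 92.9 to 101 CPM in HK2 cells. The differences were -5.87 ± 0.22, -5.49 ± 0.25 and -4.99 ± 0.20, with adjusted p between 1.61e-17 and 9.25e-16.

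SEMA6A, a guidance semaphorin, and RASEF, a Rab-like GTPase, moved in opposite directions in the 2 lines. SEMA6A fell by 4.67 ± 0.13 in ACHN and rose by 0.23 ± 0.06 in HK2 cells, and RASEF changed by -3.60 ± 0.18 and 0.30 ± 0.09. COL8A1, a network collagen (-3.98 against -0.34), MYO5C, an epithelial myosin (-3.81 against -0.30), and FXYD2, a renal regulator of the sodium pump (-3.28 against -0.17, adjusted p = 0.403 in HK2), fell in ACHN cells with lesser values in HK2. PLAC8 stood above its HK2 level in ACHN shNC only, at 13.8 to 16.1 CPM. In ACHN shYY1 it stood at 2.90 to 3.35 CPM, within the 1.05 to 3.59 CPM of the HK2 libraries.

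Genes with a higher response in ACHN cells differed in where the change lay. EPHA5, an ephrin receptor, stood at 22.8, 27.95 and 27.95 CPM in ACHN shYY1 against 0.372, 0.659 and 0.549 CPM in shNC, while HK2 libraries of both groups lay between 0.681 and 1.78 CPM (difference 5.61 ± 0.42, adjusted p = 2.44e-11). LINC03061, a long noncoding RNA, rose in both lines but from 2.82, 2.75 and 3.41 CPM to 124, 124 and 118 CPM in ACHN and from 19.3, 21.1 and 19.7 CPM to 39.0, 39.2 and 34.6 CPM in HK2 cells (5.35 against 0.91). It is the named shared rise with the largest difference, 4.44 ± 0.12.

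Others rose in ACHN and fell in HK2 cells. CCL2 (chr17:34255218-34257203), the monocyte chemoattractant, went from 10.1, 11.3 and 11.3 CPM to 70.7, 73.3 and 77.8 CPM in ACHN cells and from 5.86, 6.68 and 9.16 CPM to 2.09, 1.52 and 2.16 CPM in HK2 cells. The groups did not overlap in either line, and the changes of 2.76 ± 0.10 and -1.91 ± 0.18 differed by 4.67 ± 0.20 (adjusted p = 2.51e-16). LRRC32, which tethers latent TGF-beta at the cell surface, behaved likewise, at 6.37 to 7.33 against 48.5 to 52.7 CPM in ACHN and 2.57 to 2.98 against 0.485 to 1.02 CPM in HK2 cells. BGN, the proteoglycan biglycan, changed by 2.90 and -1.72, CACNA1H, a T-type calcium channel, by 2.01 and -1.79, and ENG, the TGF-beta co-receptor endoglin, by 1.87 and -1.63. A further 3 were at low levels in ACHN cells and fell in HK2 cells. RAP1GAP2, which inactivates Rap1, fell there from 12.8, 15.8 and 18.1 CPM to 1.38, 1.33 and 1.34 CPM and stood at 1.37 to 3.56 CPM in ACHN cells, and SOX18, a transcription factor known from vessels, and ELFN1, a synaptic adhesion protein, fell by 1.81 and 1.63 in HK2 cells and rose by 1.16 and 1.31 in ACHN cells, with ACHN levels below 2 CPM in all libraries.

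Among opposed genes with a symbol and a mean of 10 CPM or more in the higher group of each line, the largest smaller change in the direction lower in ACHN and higher in HK2 cells was that of RUNX2 (chr6:45328157-45664349), a transcription factor of bone that is also used in cancers. It went from 91.4, 89.1 and 85.1 CPM to 43.5, 45.3 and 48.6 CPM in ACHN cells, and from 18.3, 19.3 and 17.5 CPM to 34.0, 31.9 and 44.05 CPM in HK2 cells. The levels of the lines were far apart in shNC and close after depletion. The changes were -0.95 ± 0.08 and 1.00 ± 0.09 (difference -1.95 ± 0.12, adjusted p = 5.05e-13). TSPAN5, a tetraspanin (-1.30 and 0.84), CYRIA, a Rac1-binding regulator of actin (-0.93 and 0.78), SOD3, the extracellular superoxide dismutase (-0.69 and 1.07), S100A2, a calcium-binding protein (-1.06 and 0.67), and ENO2, an enolase of glycolysis (-0.94 and 0.65), followed the same order.

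In the other direction, besides CACNA1H and ENG, TGM2 (chr20:38127387-38166578), a crosslinking transglutaminase, crossed over between the lines. ACHN libraries went from 95.6, 92.1 and 95.8 CPM to 212, 216 and 213 CPM, and HK2 libraries from 410, 389 and 395 CPM to 160, 148 and 156 CPM. HK2 cells began above ACHN cells and ended below them. The changes of 1.18 ± 0.04 and -1.37 ± 0.04 differed by 2.54 ± 0.06 (adjusted p = 3.24e-22). ABCB1, the drug exporter P-glycoprotein, went from 7.76 to 9.01 CPM to 16.6 to 17.9 CPM in ACHN and from 132 to 138 CPM to 65.6 to 70.8 CPM in HK2 cells, with changes of 1.02 ± 0.08 and -0.98 ± 0.05. PAQR5, a membrane progestin receptor, changed by 0.96 and -0.90. LYNX1, a modulator of nicotinic receptors, changed by 1.21 and -1.60 and lies in a cluster of overlapping transcripts, so its counts are less certain.

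Some genes could be measured in 1 line only and so could not enter the difference. In ACHN cells 1705 such genes were tested, with 122 called lower (7.16%) and 68 higher (3.99%). In HK2 cells there were 1406, with 56 called lower (3.98%) and 23 higher (1.64%), the latter being 12 without HK2 shYY1 replicate 3. The low-count filter keeps a gene that passes in its higher group alone, which favours large changes among weakly expressed genes. These shares are therefore not comparable with those of genes measured in both lines. In ACHN cells PLEK, pleckstrin, fell from 18.0, 18.7 and 17.6 CPM to 1.08, 0.984 and 0.904 CPM with no count in any HK2 library, and CDH13, a cadherin anchored by a lipid, and ROR2, a Wnt receptor, fell by 4.16 ± 0.11 and 3.81 ± 0.20. SLCO2B1, an anion transporter, rose from 0.584, 0.604 and 0.494 CPM to 41.0, 43.6 and 38.1 CPM. The membrane protease ADAM28 rose by 5.66 ± 0.10 and PURPL, a noncoding RNA known as a p53 target, by 4.69 ± 0.14. In HK2 cells the corepressor HR, the prostaglandin dehydrogenase HPGD and the lipid receptor LPAR5 fell by 2.23 ± 0.14, 1.89 ± 0.12 and 1.58 ± 0.16. LUM, the matrix proteoglycan lumican, rose there from 11.4, 11.5 and 9.01 CPM to 29.3, 30.6 and 35.7 CPM and had no count in any ACHN library. LUM is 1 of the 6 fibroblast markers. Of the others, COL1A1 and PDGFRB averaged less in HK2 shYY1 than in HK2 shNC libraries (26.4 against 31.4 and 0.498 against 1.20 CPM), PDGFRA and COL1A2 were at or near 0, and DCN stood below 1 CPM. Their part in the LUM values was not tested.

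Gene groups were then compared as counts of members past the test at any size, to be read beside the shares over all genes of 19.8% lower and 22.4% higher in ACHN, 19.1% and 19.0% in HK2, and 19.5% and 20.2% for the difference. The median change over all genes was 0.010 in ACHN and 0.005 in HK2 cells. The lists overlap in function, were chosen with earlier results of these data known, and got no test of their own.

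**Figure D3:**
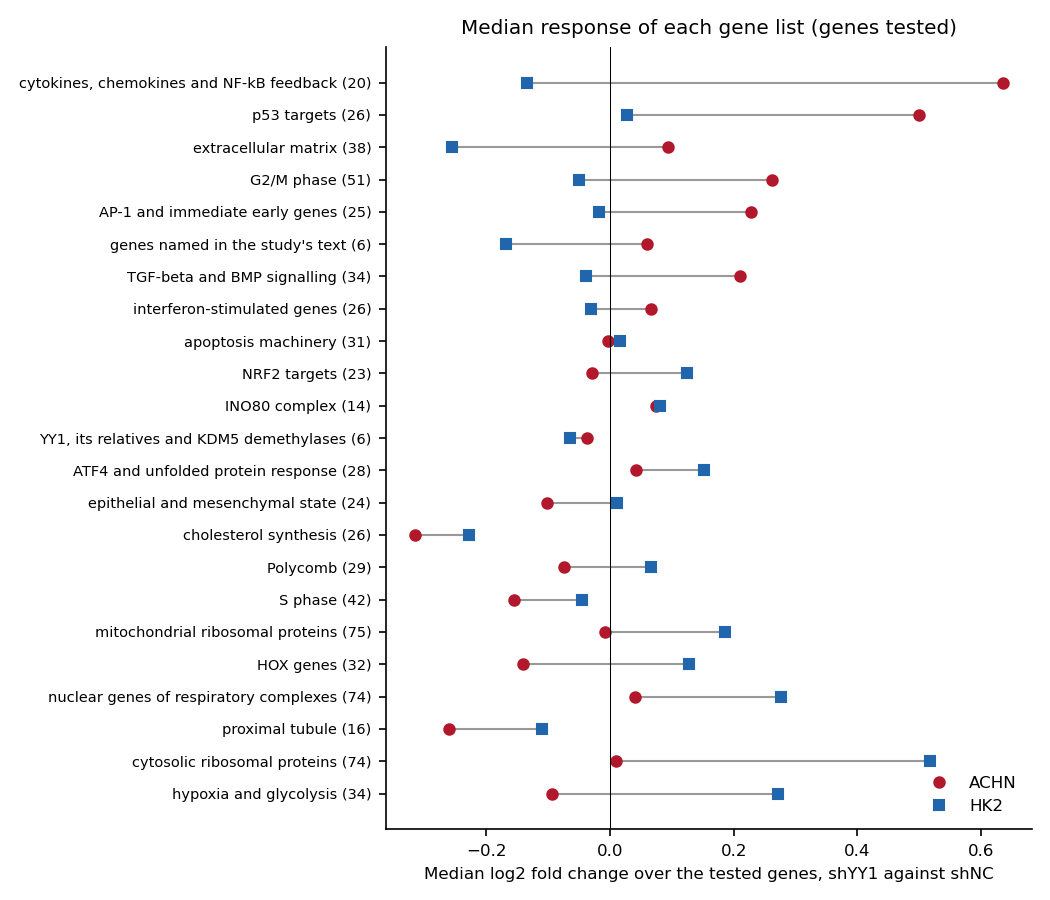
Median log2 fold change of each gene list in ACHN (red circles) and HK2 cells (blue squares), joined by a grey line and ordered by the median difference, with the number of genes tested in brackets. Cytokines and p53 targets sit furthest to the right in ACHN cells, cytosolic ribosomal proteins in HK2 cells, and cholesterol synthesis lies left of 0 in both.

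The proteins of the cytosolic ribosome, the machine of translation, rose in HK2 cells as a block. Of 74 genes, 72 rose there, none fell, and the median change was 0.52. In ACHN cells 9 rose, 9 fell and the median was 0.01. The difference was lower in ACHN for 71 of the 74. RPL23, of the large subunit, went from 463, 465 and 453 CPM to 352, 346 and 366 CPM in ACHN cells and from 234, 244 and 264 CPM to 377, 325 and 385 CPM in HK2 cells, so that it changed by -0.38 ± 0.05 and 0.55 ± 0.05 (adjusted p of the difference 3.94e-11). RPL21 (-0.21 and 0.62) and RPL19 (-0.23 and 0.45) did the same. RPL7 (0.26 and 0.57) and RPS20 (0.32 and 0.59) rose in both lines, less in ACHN. These genes have many processed copies in the genome that can share their reads, and 6 of their 59 promoters held the motif (10.2%).

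Nuclear genes of the respiratory complexes followed in part. Of 74 tested, 43 rose and 5 fell in HK2 (median 0.28) and 16 rose and 10 fell in ACHN cells (median 0.04), and 31 were lower and 5 higher in the difference (median -0.20). NDUFS5 of complex I changed by -0.19 ± 0.06 in ACHN and 0.57 ± 0.06 in HK2 cells, ATP5MC1 of ATP synthase by -0.18 ± 0.08 (adjusted p = 0.0607) and 0.57 ± 0.08, and UQCRH of complex III by -0.03 ± 0.06 and 0.49 ± 0.05. COX6C and CYC1, of complexes IV and III, rose in both lines (0.48 and 0.55, 0.61 and 0.38). Mitochondrial ribosomal proteins numbered 31 higher and 3 lower of 75 in HK2 (median 0.19) and 10 higher and 7 lower in ACHN cells (median -0.01). Examples are MRPS15 (-0.02 and 0.49) and MRPS23 (-0.28 and 0.30). MRPL48 rose in both (0.61 and 0.49), and MRPL35 changed by 0.14 and -0.50.

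Gene length moved with these results in HK2 cells. Genes were split into 5 equal bins by exon length, which takes all annotated exons of a gene together and can exceed the length of its transcripts. The median change over all genes there declined from 0.090 in the shortest bin to -0.053 in the longest, against 0.016 and -0.005 in ACHN cells. The median lengths of the 3 lists (2990, 2539 and 2469 bases) lie in the bin after the shortest, of 2398 to 3828 bases. Its median change was 0.031 in HK2 and 0.012 in ACHN cells. With the trend of each library with length and GC content taken out, the HK2 medians were 0.52, 0.15 and 0.23 for the cytosolic ribosome, the mitochondrial ribosome and the respiratory complexes, and 72 of 74 cytosolic genes rose there. The trend used the same exon length, so the part of transcript length in these rises was not tested. In ACHN cells 14 cytosolic and 25 respiratory genes then rose, and the median difference of the respiratory genes was -0.12. When libraries were scaled by total counts, 5 cytosolic genes rose and 14 fell in ACHN cells, and 16 respiratory genes fell there. The share of counts from mitochondrial genes was also lower in HK2 shYY1 (4.77% to 4.89%) than in HK2 shNC libraries (5.14% to 5.52%). Its part in the result was not tested.

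Hypoxia and glycolysis genes moved in opposite ways. Of 34, 15 fell and 5 rose in ACHN (median -0.09), and 22 rose and 2 fell in HK2 cells (median 0.27). The difference was lower in ACHN for 22, with a median of -0.52, and 12 genes fell in ACHN while rising in HK2 cells. BNIP3, a mitophagy receptor induced by hypoxia, went from 75.2, 73.1 and 69.0 CPM to 62.2, 57.5 and 60.1 CPM in ACHN cells and from 111, 116 and 113 CPM to 226, 215 and 246 CPM in HK2 cells. PDK1, a kinase that inhibits pyruvate dehydrogenase, changed by -0.58 ± 0.07 and 0.93 ± 0.06. Rises in both lines were those of ANGPTL4 (1.38 and 2.16), a lipase inhibitor near or below 1.5 CPM in HK2 cells, and PFKFB3 (0.78 and 0.29), which drives glycolysis.

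Cholesterol synthesis genes fell in both lines. Of 26 genes 18 fell in ACHN (median -0.32) and 19 in HK2 cells (median -0.23), 15 of them in both, and 1 and 0 rose. HMGCS1, an early enzyme of the pathway, fell by 0.47 ± 0.05 and 0.46 ± 0.04, with an interval of the difference from -0.14 to 0.12. EBP (-0.36 and 0.10) and FDFT1 (-0.37 and -0.10) differed between the lines (adjusted p = 8.47e-06 and 1.59e-04). Over the whole list the changes ran from -3.31 to 0.19 in ACHN and from -0.73 to 0.20 in HK2 cells. The difference ran from -2.58 to 0.36.

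Genes under p53 control, which arrest the cycle, repair DNA or promote cell death, rose in ACHN cells. Of 26, 21 rose and 3 fell there (median 0.50), and 9 rose and 5 fell in HK2 cells (median 0.03), while the difference was higher in ACHN for 19. CDKN1A, the cell cycle inhibitor p21, went from 135, 144 and 133 CPM to 283, 293 and 275 CPM in ACHN cells and from 50.3, 47.7 and 53.1 CPM to 58.7, 55.1 and 57.6 CPM in HK2 cells. That is 1.05 ± 0.04 against 0.18 ± 0.05 (adjusted p = 5.55e-11). RRM2B, a p53-induced ribonucleotide reductase subunit, changed by 0.96 and -0.01, TP53I3, an oxidoreductase, by 0.21 and -0.99, and GDF15, a stress cytokine, rose in both (1.20 and 0.35). XPC, a damage sensor, fell in both (-0.35 and -0.36).

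Cell cycle genes split by phase in ACHN cells. Of 51 G2/M genes 42 rose and 3 fell in ACHN cells (median 0.26), and 7 rose and 18 fell in HK2 cells (median -0.05). Of 42 S phase genes 20 fell and 4 rose in ACHN (median -0.16), and 11 fell and 4 rose in HK2 cells (median -0.05). MKI67, the proliferation marker, changed by 0.33 ± 0.04 and -0.27 ± 0.04, and RANGAP1 by 0.20 and -0.31. LBR, the lamin B receptor, went against its list in ACHN cells (-1.41 ± 0.05, and 0.02 in HK2), and CKS2, a cyclin-dependent kinase subunit, rose in both (0.57 and 0.34). CDC6, which loads replication origins, changed by -0.86 and -0.14, and RRM2 by 0.48 and -0.17. Of 31 apoptosis genes, 11 rose and 7 fell in ACHN and 5 rose and 9 fell in HK2 cells. There BCL2, which protects cells from death, fell by 1.02 ± 0.07 and 0.19 ± 0.07, BIRC3, an inhibitor of apoptosis induced by NF-kB, changed by 0.92 and -0.65, and CYCS, cytochrome c, rose in both (0.31 and 0.25).

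Of the 6 genes that the study's text names, 2 fell and 3 rose in ACHN and 5 fell and 0 rose in HK2 cells. The study reported their lower expression for cells depleted of both KDM5C and YY1, whose libraries were not used here. JAM3, a junction adhesion molecule, fell from 42.4, 44.01 and 38.6 CPM to 19.8, 18.8 and 19.0 CPM in ACHN cells and from 38.7, 42.6 and 45.1 CPM to 28.5, 26.2 and 26.8 CPM in HK2 cells, more in ACHN (-1.12 against -0.63, adjusted p = 6.63e-04). KNTC1, of the kinetochore, fell in both (-0.31 in both, interval of the difference -0.12 to 0.13). FOXM1, a driver of G2/M genes, rose from 167 to 169 CPM to 217 to 222 CPM in ACHN and fell from 196 to 204 CPM to 172 to 176 CPM in HK2 cells (0.39 and -0.19). The condensin subunit SMC4 changed by 0.16 and -0.14 and SMC2 by 0.27 and 0.02. LMNB1, lamin B1, gave -0.04 ± 0.04 (adjusted p = 0.427) and -0.12 ± 0.04. The study chose these genes on libraries that include the present ones, so their counts are not independent evidence of a direction.

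Cytokine genes rose in ACHN cells. Of 20 cytokines, chemokines and NF-kB feedback genes measured in both lines, 15 rose and 1 fell there (median 0.64), and 2 rose and 8 fell in HK2 cells (median -0.13). IL6 went from 13.7, 13.8 and 14.4 CPM to 59.1, 64.6 and 58.1 CPM in ACHN cells and from 9.54, 8.59 and 9.01 CPM to 9.10, 9.03 and 14.1 CPM in HK2 cells, where the groups overlapped. IL32 changed by 0.92 and -0.30 and TNFAIP2, an NF-kB target, by 0.70 and -0.16. ICAM1, an adhesion molecule of the same pathway that lay below 2 CPM in ACHN cells, fell in both (-1.51 and -0.32). Of the interferon-stimulated genes, 7 of 26 rose and 5 fell in ACHN, and 6 rose and 5 fell in HK2 cells. IFI44 changed by 1.16 and 0.06 and USP18 rose by 0.77 in both lines.

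Immediate early genes of AP-1 numbered 10 higher and 3 lower of 25 in ACHN (median 0.23) and 4 higher and 8 lower in HK2 cells (median -0.02). EGR1, an early zinc finger factor, fell in HK2 cells from 28.3, 27.9 and 26.6 CPM to 5.45, 7.40 and 6.58 CPM and gave -0.04 ± 0.11 in ACHN cells (adjusted p = 0.820). JUNB rose by 1.11 in ACHN and fell by 0.26 in HK2 cells, and JUN went the other way (-0.41 and 0.24). PHLDA1 rose in both (0.23 and 0.71).

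**Figure D4:**
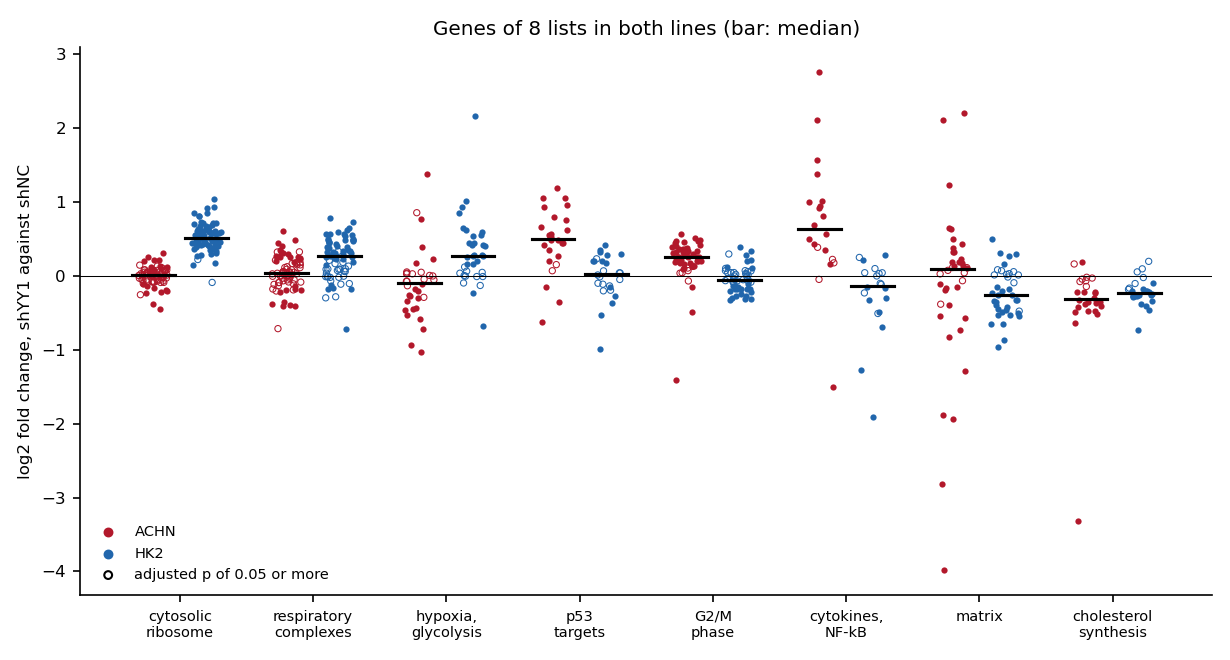
Log2 fold change of each measured gene of 8 lists, ACHN in red and HK2 in blue, with filled points past an adjusted p of 0.05, open points not past it, and a bar at the median. Cytosolic ribosomal genes lie above 0 in HK2 and around 0 in ACHN cells, p53 targets, G2/M genes and cytokines are shifted upward in ACHN cells, and single matrix genes in ACHN cells spread from -3.98 to 2.21.

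Extracellular matrix genes moved both ways in ACHN cells. Of 38 genes, 17 rose and 14 fell in ACHN (median 0.09), and 5 rose and 23 fell in HK2 cells (median -0.26), and 12 rose in ACHN while falling in HK2 cells. With the length and GC trend taken out, 11 rose and 20 fell in HK2 cells (median -0.12). FN1, fibronectin, fell from 3355, 3609 and 3310 CPM to 867, 934 and 873 CPM in ACHN cells and from 8672, 9058 and 8930 CPM to 6515, 6080 and 6263 CPM in HK2 cells (-1.94 ± 0.04 against -0.50 ± 0.04). COL16A1, a fibril-associated collagen, rose from 61.7 to 70.5 CPM to 299 to 324 CPM in ACHN cells and fell by 0.49 ± 0.08 in HK2 cells. TNC, tenascin C, fell in both (-0.57 and -0.86). The summed fibroblast markers were lower in ACHN shYY1 libraries through COL1A1, itself a gene of the matrix list (means of 593.5 CPM in shNC and 161.1 CPM in shYY1), while PDGFRB averaged 32.2 and 35.3 CPM.

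TGF-beta and BMP genes numbered 17 higher and 7 lower of 34 in ACHN (median 0.21) and 12 lower and 9 higher in HK2 cells (median -0.04). The ligand GDF6 went from 18.1, 18.1 and 18.3 CPM to 52.99, 47.4 and 48.5 CPM in ACHN cells and from 36.3, 36.3 and 37.4 CPM to 22.2, 21.0 and 19.98 CPM in HK2 cells. The ligand TGFB2 changed by -1.40 ± 0.05 in ACHN and 0.11 ± 0.05 in HK2 cells (adjusted p of the difference 1.51e-15), and BMP4 fell by 1.86 ± 0.16 and 0.32 ± 0.12. LTBP2, which binds fibrillin, changed by 0.79 and -0.63. The target ID3 rose by 2.26 ± 0.08 and 0.40 ± 0.06.

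Epithelial genes were divided in both lines. Of 24 epithelial and mesenchymal genes, 8 rose and 8 fell in ACHN and 7 rose and 9 fell in HK2 cells. KRT7 went from 6.43 to 7.54 CPM to 25.2 to 27.0 CPM in ACHN and from 117 to 124 CPM to 108 to 122 CPM in HK2 cells, and the simple keratins KRT18 (0.33 and -0.84) and KRT8 (0.35 and -0.56) rose in ACHN and fell in HK2 cells. The tight junction genes OCLN (-1.39 and -1.26) and JAM2 (-2.77 and -1.68) fell in both lines. JAM2 was low throughout, with means of 1.67 CPM in shNC and 0.238 CPM in shYY1 of ACHN, and 2.30 and 0.713 CPM in HK2 cells. Among 16 proximal tubule genes 9 fell and 2 rose in ACHN and 6 fell and 3 rose in HK2 cells. PAX2, a kidney transcription factor, went from 27.6, 28.7 and 29.4 CPM to 90.6, 85.3 and 78.2 CPM in ACHN cells and from 9.81, 8.09 and 11.6 CPM to 2.27, 3.27 and 2.80 CPM in HK2 cells. GGT1, a brush border peptidase, changed by 0.52 and -0.44, the bicarbonate carrier SLC4A4 by -0.96 and -0.13, and GATM, of creatine synthesis, fell in both (-0.92 and -0.61).

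Of 32 HOX genes, which set position along the body axis, 12 fell and 3 rose in ACHN (median -0.14), and 7 fell and 7 rose in HK2 cells (median 0.13). Besides HOXA7, HOXA5 (-0.98 ± 0.08 and 0.30 ± 0.07) and HOXB9 (-0.64 ± 0.07 and 0.31 ± 0.08) fell in ACHN and rose in HK2 cells. Complexes that YY1 is known to work with were also listed. Of 29 Polycomb genes, 8 fell and 5 rose in ACHN and 6 fell and 10 rose in HK2 cells. RYBP, a PRC1 subunit known to bind YY1, changed by -0.88 ± 0.06 and 0.25 ± 0.07, SUZ12 of PRC2 by -0.57 and 0.10, and PHF19, a PRC2 accessory protein, by 0.01 and -0.87, while PHC1 fell in both (-0.23 and -0.36). Of 14 INO80 complex genes, 5 rose and 2 fell in ACHN and 2 rose and 1 fell in HK2 cells, among them INO80 itself (0.36 and -0.18), UCHL5 (0.03 and 0.29) and ACTL6A (0.17 and 0.20).

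Stress programmes showed mixed changes. Of 28 ATF4 and unfolded protein genes, 10 rose and 4 fell in each line. The serine synthesis enzyme PHGDH (-0.41 and 0.34) and the kinase-like TRIB3 (-0.62 and 0.20) fell in ACHN and rose in HK2 cells, VLDLR did the reverse (0.36 and -0.27), and the amino acid carrier SLC7A5 rose in both (0.73 and 0.40). Of 23 NRF2 targets, 5 rose and 8 fell in ACHN and 10 rose and 4 fell in HK2 cells. TXNRD1, thioredoxin reductase, went from 581 CPM on average to 478 CPM in ACHN and from 387 to 585 CPM in HK2 cells (-0.28 ± 0.03 and 0.59 ± 0.03). The ferritin chain FTH1 changed likewise (-0.35 and 0.30), and heme oxygenase HMOX1 rose by 1.09 and 0.42. Of 25 genes of blood, endothelium, fibroblasts, fat and neurons, only 3 were measured in both lines, ACTA2 (0.87 and 0.16), PDGFRB (0.13 and -1.27) and SNAP25 (-1.24 and -0.54), all at low levels in at least 1 line.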

How the data were processed

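Total RNA of 12 libraries was sequenced as 150 bp read pairs. The authors aligned them with HISAT2 2.0.5 and deposited raw counts of read pairs per gene. The file headers name featureCounts 2.0.1 with Ensembl release 84 genes on GRCh38 and no strand option, whereas the labels' processing notes name featureCounts 1.5.0-p3. Without strand, overlapping and antisense genes cannot be separated, and close copies may share reads.

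Of 60675 genes, 56558 were given a symbol, and the 4117 others hold 0.208% of counts. Genes passing edgeR's low-count filter within each line were fitted (edgeR 4.0.16, R 4.3.3) with TMM factors, 4 groups and the quasi-likelihood F test, with contrasts for each line and for their difference, and Benjamini-Hochberg adjustment over 14665 genes. Standard errors and 95% intervals derive from the F statistic. Genes measured in 1 line were tested on its 6 libraries. With 3 against 3, an exact permutation test of 1 gene cannot go below a p of 0.1. Counting intervals cover counting error only, and a count of 0 allows up to 0.156 to 0.183 CPM by library (3 counts).

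The members and the 24 gene lists (864 of 865 entries matched) were chosen with earlier results of these data known. Named were YY1, YY2, YY1AP1, KDM5C and the study's 6 genes. Further named were, in each direction, the 10 called genes with the largest difference (replicates not overlapping in the line with the larger change), and the 8 shared and 6 opposed genes past the test in both lines with the largest smaller change. Each had a symbol and a mean of 10 CPM or more in its higher group (for a difference, of 1 CPM in the other line). From each list came up to 3 genes with the smallest adjusted p of the difference and 2 with the largest smaller change in one direction. Among genes measured in 1 line, up to 3 per direction without overlap were taken. A few genes that the rule names are not reported here. Alternatives were DESeq2 1.42.0, its size factors, total counts, other low-count filters, the replicate number as a block, unadjusted p, a fit of each line alone, and omission of every library one at a time. Removal of each library's trend with length and GC (spline with 5 degrees of freedom, GC known for 99.1% of genes) was chosen after seeing the data. The fits were tested on simulated counts with known changes.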

Additional observations from a re-analysis of the deposited data

Results flagged for a closer look

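The response to YY1 depletion differed between the lines by the test of the difference itself, at an adjusted p under 0.05 in edgeR's quasi-likelihood test and a log2 difference of at least 1.5 in size, for 254 genes with the lower and 257 genes with the higher change in ACHN cells. Among the named genes, the ACHN change minus the HK2 change on the log2 scale was negative for NRK (-8.59), HOXA7 (-5.87), FOLR1 (-5.49), VAV3 (-4.99), SEMA6A (-4.90), RASEF (-3.91), COL8A1 (-3.64), MYO5C (-3.51), FXYD2 (-3.12), PLAC8 (-2.91), NPNT (-2.55), TSPAN5 (-2.14), MACROH2A2 (-2.13), RUNX2 (-1.95), SOD3 (-1.76), S100A2 (-1.74), CYRIA (-1.72), ENO2 (-1.59), BMP4 (-1.54), PDK1 (-1.52) and TGFB2 (-1.51). It was positive for EPHA5 (5.61), LRRC32 (4.68), CCL2 (4.67), BGN (4.62), LINC03061 (4.44), RAP1GAP2 (4.27), CACNA1H (3.80), ENG (3.50), PAX2 (3.39), SOX18 (2.97), ELFN1 (2.95), LYNX1 (2.81), COL16A1 (2.70), TGM2 (2.54), GDF6 (2.25), EGR1 (2.05), ABCB1 (2.00), KRT7 (1.94), IL6 (1.87), PAQR5 (1.86), ID3 (1.85), ANKRD1 (1.75) and BIRC3 (1.56). YY1 mRNA itself fell further in HK2 cells, and the part of that inequality in these differences was not tested.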

How the results depend on the processing

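The low-count filter moved the counts of called genes. Without it, 491 genes were called lower and 190 higher in ACHN cells, 302 and 136 in HK2 cells, and 429 and 422 for the difference, with 21 shared falls of 1.5 or more, and with 96 higher genes of ACHN and 133 lower and 43 higher genes of HK2 cells called in that line with a called difference. With the filter over the 4 groups together, the same counts were 443 and 175, 242 and 102, 400 and 396, 24, and 95, 125 and 39. With at least 10 counts in every library they were 136 and 46, 42 and 11, 142 and 148, 3 shared falls and 0 shared rises, and 85 lower and 35 higher genes of ACHN and 19 lower and 4 higher genes of HK2 cells. These settings tested 36712, 18010 and 13215 genes, against 14665 in the main fit. The looser settings also take in genes not measured in both lines. With the length and GC trend taken out, a setting chosen after seeing the data, 1335 genes rose in both lines, and the cause was not tested. DESeq2 called 241 and 80 genes in ACHN, 105 and 28 in HK2 cells, and 242 and 259 for the difference, and no scaling moved the median of all genes by more than 0.043 from 0.

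Leaving out each library in turn gave 243 to 265 lower and 81 to 99 higher genes in ACHN cells, 106 to 152 and 26 to 58 in HK2 cells, and 251 to 294 and 255 to 302 for the difference. Shared changes of 1.5 or more numbered 9 to 13 and 2 to 4. Genes called in one line with a called difference numbered 158 to 173 and 54 to 67 for ACHN, and 56 to 89 and 5 to 32 for HK2 cells, and the higher genes measured in HK2 cells alone 12 to 24.

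Same-numbered shNC and shYY1 libraries did not deviate together (correlations of deviations -0.0256 to 0.00933 in ACHN and 0.0239 to 0.0262 in HK2 cells), although each HK2 library correlated best with its own number. With the replicate number as a block, 242 and 82 genes were called in ACHN, 104 and 29 in HK2 cells and 248 and 256 for the difference, and no call of a named gene changed.

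Of 5134 values of the named genes under the alternatives, 5042 kept their direction and side of the threshold, 45 lost the call, 22 gained it and 25 changed sign, all of them small values. The difference of KDM5C was -0.00811, -0.0000551 and -0.0693 without the filter, with the filter over the 4 groups and with the length and GC trend taken out, and -0.0365 to 0.0357 with single libraries left out. That of KNTC1 was -0.0101 and -0.0024 under the first 2 of these settings and -0.0449 to 0.0255 with libraries left out. With the length and GC trend taken out LMNB1 in ACHN cells was 0.000545 and the difference of YY2 0.0541, the latter being -0.162 to 0.0874 with libraries left out. In HK2 cells SMC2 was -0.0152 with total counts and -0.0165 to 0.0642 with libraries left out, ACTA2 -0.148 to 0.504 and NR4A2 -0.0212 to 0.496, both lowest without HK2 shYY1 replicate 3. Depth limits what can be said of genes below about 1 CPM.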
